A study of Mus musculus with 6 samples.

Results

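The 10 genes described here belong to the transcriptional response to low oxygen. They are the factors Hif1a and Epas1 and 8 genes known as hypoxia targets, namely Egln3, Ankrd37, Bnip3, Vegfa, Adm, Car9, Car12 and Ndrg1. They were picked by symbol, and all 10 were among the 15280 genes of the deposited RNA-Seq table. The tissue came from BK5.ATF3 transgenic female mice, in which a bovine cytokeratin 5 promoter drives the stress-induced transcription factor ATF3 in basal epithelial cells. The females had raised 1 litter each. A tumor length of 1.5 cm set the time of collection, and tumor onset fell at an age of 6 to 12 months. Tumors from 3 mice (T11035, T11640 and T9232) were compared with the adjacent normal mammary gland of the same animals (M11035, M11640 and M9232, in that order), so that both groups carry the transgene and non-transgenic glands were not analysed here. The comparison asks how expression in the tumor differs from that in the normal gland.

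Cells sense oxygen through the hypoxia-inducible factors (HIFs). With oxygen present, prolyl hydroxylases of the Egln family mark the HIF alpha proteins, the von Hippel-Lindau protein Vhl binds the mark, and the proteasome degrades them. Without oxygen the alpha subunits accumulate, pair with Arnt and bind short DNA elements near genes for blood vessel growth, glucose use, acid-base balance and cell survival. Control of the alpha subunits is largely at the protein level, which RNA-Seq does not measure. In the breast, regions of low oxygen are well known in solid tumors, while the fat pad that makes up most of a resting gland is rich in adipocytes and vessels.

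Each library held 4750989, 6127715 and 7372155 fragments assigned to genes in M11035, M11640 and M9232, and 5116883, 7806908 and 6948233 in T11035, T11640 and T9232. Levels are in CPM, fragments scaled to the effective size of each library, and values are given below in that order of libraries. A level resting on 3 fragments, taken as the floor, was 0.610, 0.496 and 0.410 CPM in the glands and 0.558, 0.393 and 0.450 CPM in the tumors, which covers counting error only. Fold changes are tumor over gland on the scale of log2(CPM + 0.5), which understates the change of genes with low values. A gene was called a differentially expressed gene (DEG), and is said to have risen or fallen, at a limma adjusted p of at most 0.05 together with a fold change of at least 2.

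Glands M11035 and M11640 stood apart from the other 4 libraries by their skeletal muscle transcripts. The 7 muscle markers summed to 4083 and 1560 CPM in these glands, against 5.06 CPM in gland M9232 and 15.6, 7.86 and 14.4 CPM in the tumors. Myh4, a fast muscle myosin and the most abundant of them, stood at 2779 and 1107 CPM in those 2 glands and at 0.958 CPM in gland M9232, and Ckm and Actn3 were at or under the floor in every tumor. Of the 7 markers, 2 (Myh1 and Mylpf), or 28.6%, were called lower in tumors, beside 13.7% of all genes. Both calls were lost when any 1 library other than M9232 was left out (limma adjusted p = 0.0899 to 0.143), and with no mean-variance trend. For this reason the results are also given for the 3 tumors against gland M9232 alone, a comparison chosen after seeing the data in which the lone gland is assumed to vary like the tumors.

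Of the 10 hypoxia genes, 5 rose in the tumors (Hif1a, Egln3, Ankrd37, Adm and Car12), 1 fell (Epas1) and 4 were not called (Vegfa, Bnip3, Car9 and Ndrg1). The 6 DEGs among 10 stand beside 28.2% of all 15280 genes, the 5 that rose beside 14.5%, and the 1 that fell beside 13.7%. Adjusted p alone passed for 8 of the 10, beside 41.2% of all genes. All 3 tumors lay on the same side of all 3 glands for 9 of the 10, beside 54.0% of all genes. The median log2 fold change was 1.24 over the 10 genes and -0.00276 over all genes. Against gland M9232 alone, 5 of the 10 again rose and 1 fell, where 10.9% of all genes were called higher and 10.1% lower. Without gland M9232 the count of DEGs was 9, since Car9 and Ndrg1 were then called higher and Bnip3 lower, and without tumor T9232 it was 7, Bnip3 being called lower. Of all genes, 28.6% and 25.7% were called in these 2 fits.

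**Figure D1:**
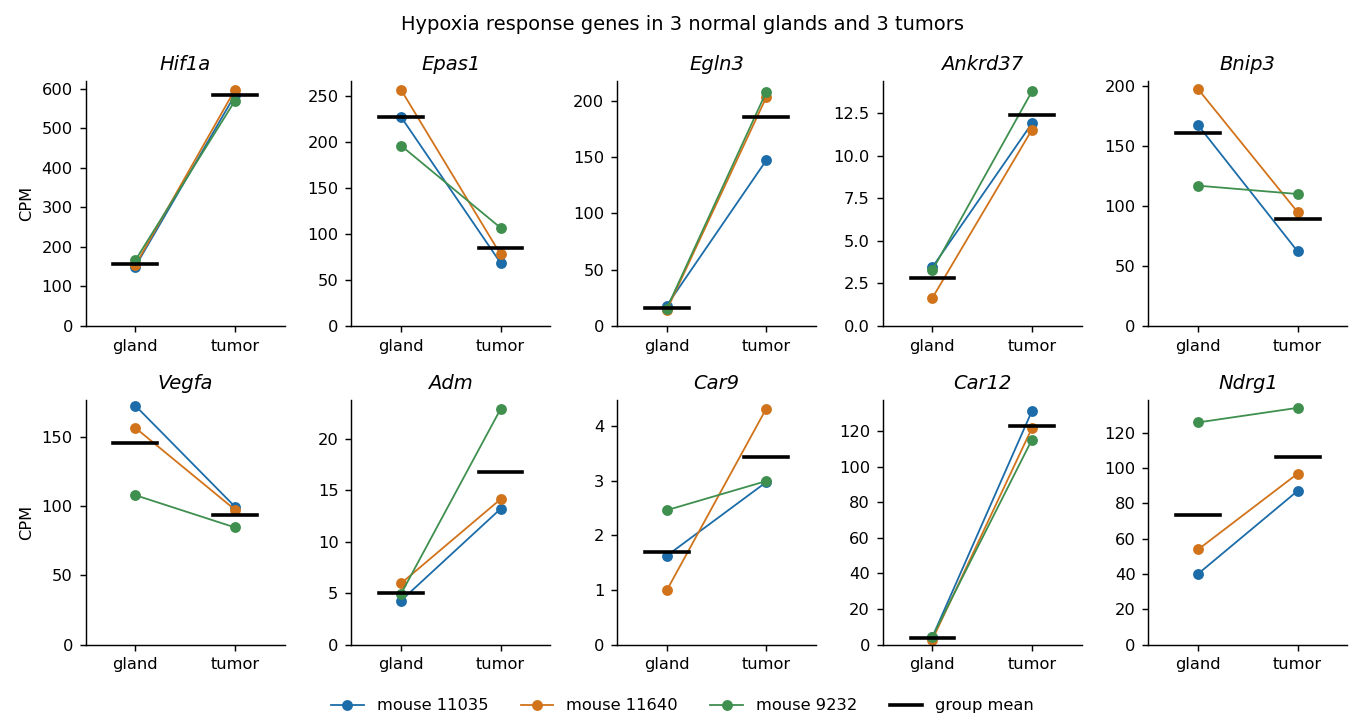
CPM (linear axis from 0, a separate scale for each gene) of the 10 hypoxia genes in the normal gland and the tumor of 3 mice. Each point is a library, thin lines join the tissues of a mouse and black bars are group means; Hif1a, Egln3, Ankrd37, Adm and Car12 have all tumors above all glands and were called higher, whereas Ndrg1 of gland M9232, at 126 CPM, lies among the tumors.

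Hif1a encodes the HIF alpha subunit found in most cell types (chr12:75002362-75048517, mm9). Its level was 150.2, 154 and 166 CPM in the glands and 584, 597 and 569 CPM in the tumors. Both groups were tight and far apart, with means of 157 ± 8.33 CPM in the glands and 584 ± 14.0 CPM in the tumors (SD, n = 3 each). Hif1a rose by a log2 fold change of 1.89 (95% interval 1.62 to 2.17, limma adjusted p = 1.09e-05), which is 3.72-fold. With M9232 as the lone gland it was 1.81.

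Epas1 encodes HIF-2 alpha, the subunit known from endothelial cells and adipocytes among others (chr17:87153247-87232750). It was at 227, 256 and 196 CPM in the glands and 68.5, 77.7 and 107 CPM in the tumors. Every gland stood above every tumor, and M9232 was the lowest gland and T9232 the highest tumor. Group means were 226 ± 30.3 CPM and 84.2 ± 19.9 CPM (SD, n = 3 each), and Epas1 fell by 1.44 on the log2 scale (SE 0.19, limma adjusted p = 0.000536), a level 2.71-fold lower. Against gland M9232 alone, whose muscle markers were near 0, the log2 fold change was -1.24 (limma adjusted p = 0.0323).

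The 2 alpha subunits thus moved in opposite directions, and their order reversed. Per kilobase of exon, Hif1a was at 0.596, 0.540 and 0.764 times the level of Epas1 in the 3 glands. In the tumors the same ratio was 7.68, 6.92 and 4.81. Epas1 was therefore the more abundant of the pair in each gland and Hif1a in each tumor.

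Markers of adipocytes and endothelial cells, in which Epas1 is known to be expressed, were also measured. All 9 adipocyte markers fell, beside 13.7% of all genes, with sums of 5079, 6582 and 3355 CPM in the glands and 169, 218 and 159 CPM in the tumors. Fabp4, a fatty acid carrier and the most abundant of them, went with that pattern at 3795, 4979 and 2458 CPM against 146, 186 and 132 CPM, and Lep was at or under the floor in every tumor. Of 10 endothelial markers 2 fell, Tek and Vwf, which is 20% beside 13.7% of all genes. Adjusted p alone passed for 5 of the 10, beside 41.2% of all genes, and the median log2 fold change of the 10 was -0.50. The 10 summed to 345, 408 and 308 CPM in the glands and 193, 219 and 282 CPM in the tumors. Pecam1 was the most abundant, at 154, 123 and 117 CPM against 66.8, 69.6 and 101 CPM. Vwf was not a DEG without gland M11640 (limma adjusted p = 0.0666), without tumor T11035 (0.0815) or without tumor T11640 (0.0962), nor against gland M9232 alone (0.229), and in edgeR and DESeq2 its change was just under 2-fold. In these bulk samples fewer cells of a type and less RNA per cell cannot be told apart, and the part of the adipocyte and endothelial markers in the Epas1 result was not tested.

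Egln3 encodes a HIF prolyl hydroxylase whose own transcription is known to be induced by HIF, a feedback on the pathway (chr12:55279968-55304847). It was measured at 18.1, 14.0 and 15.5 CPM in the glands and at 147, 203 and 208 CPM in the tumors. The lowest tumor, T11035, was still far above all glands. With means of 15.9 ± 2.06 and 186 ± 33.8 CPM (SD, n = 3 each), Egln3 rose 11.3-fold, a log2 fold change of 3.50 (95% interval 3.07 to 3.93, limma adjusted p = 4.92e-06). The value against gland M9232 alone was 3.53.

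Of 18 genes for HIF subunits, hydroxylases, the Vhl ubiquitin ligase and coactivators, Hif1a and Egln3 rose, Epas1 fell and 15 were not called, so that 16.7% were DEGs beside 28.2% of all genes. Of those 15, 3 had an unadjusted limma p under 0.05, and edgeR and DESeq2 called 0 as well. Arnt2, a partner subunit known mainly from the nervous system, was called lower against gland M9232 alone (log2 fold change -1.41, limma adjusted p = 0.0385) and had a log2 fold change of -0.55 (0.318) with all libraries. Egln1, the prolyl hydroxylase that sets HIF levels in most tissues, was at 115, 99.4 and 61.0 CPM in the glands and 69.6, 64.7 and 72.5 CPM in the tumors, and the groups overlapped. Its log2 fold change was -0.36 (limma adjusted p = 0.240) with all libraries and 0.17 (0.527) against gland M9232 alone. Egln2, the third of these hydroxylases, overlapped likewise, with 14.2 to 18.9 CPM in the glands and 9.12 to 16.2 CPM in the tumors.

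Arnt, the shared partner of the alpha subunits, was at 137, 172 and 182 CPM in the glands and 108, 146 and 127 CPM in the tumors, with overlapping groups (log2 fold change -0.36, limma adjusted p = 0.123). Levels of Vhl were 18.3, 11.6 and 15.3 CPM in the glands and 15.6, 14.4 and 14.7 CPM in the tumors. The 95% interval of its log2 difference ran from -0.48 to 0.50. For Hif1an, the asparagine hydroxylase that blocks coactivator binding, that interval ran from -0.58 to 0.51. Hif3a, an alpha subunit whose splice forms can dampen the response, was low throughout, at 1.22 to 3.42 CPM in the glands and 0.393 to 1.49 CPM in the tumors. Siah2, a ubiquitin ligase that acts on the hydroxylases, had the highest log2 fold change of the 15 genes not called, at 0.60 (limma adjusted p = 0.0807).

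**Figure D2:**
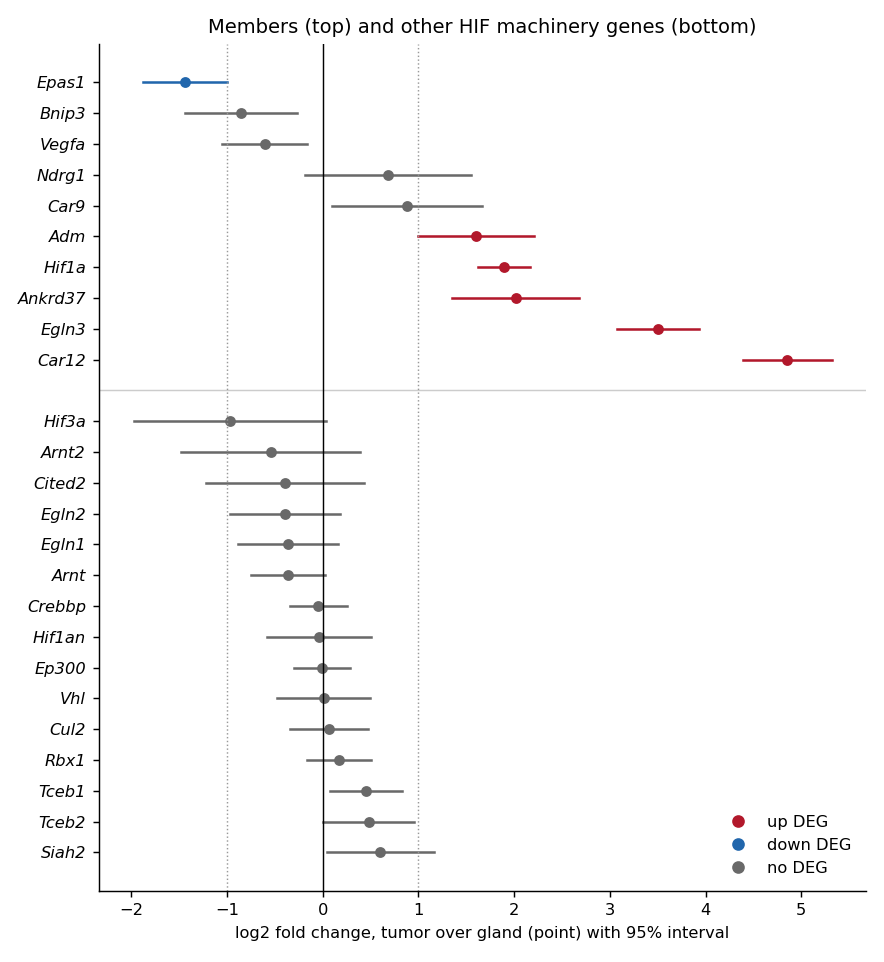
Tumor over gland log2 fold change (point) with its 95% interval (line) from the limma fit for the 10 hypoxia genes (upper block) and the 15 other HIF pathway genes (lower block). Dotted lines mark a 2-fold change; Car12 at 4.86 and Egln3 at 3.50 lie farthest to the right, Epas1 at -1.44 farthest to the left, and none of the 15 genes in the lower block was called.

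Ankrd37 encodes a small ankyrin repeat protein and is known as a direct HIF target (chr8:47082256-47085221). Its level was 3.46, 1.65 and 3.28 CPM in the glands and 11.9, 11.5 and 13.8 CPM in the tumors. The groups did not overlap, and the tumors lay close together. Ankrd37 rose by 2.02 on the log2 scale (SE 0.29, limma adjusted p = 0.000775), from a mean of 2.80 ± 0.996 to 12.4 ± 1.21 CPM (SD, n = 3 each). Exons of Ankrd37 overlap those of Lrp2bp and Ufsp2, both annotated on the opposite strand, and no source used here states that fragments were counted by strand, so its counts are uncertain to that extent. Neither neighbor was called, with log2 fold changes of -0.25 for Lrp2bp (limma adjusted p = 0.676) and 0.30 for Ufsp2 (0.160).

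Bnip3 encodes a mitochondrial protein that promotes removal of mitochondria and cell death under low oxygen (chr7:146082519-146101202). Its gland levels were 167, 197 and 117 CPM and its tumor levels 62.2, 94.9 and 110.0 CPM. All tumors were below all glands, but the log2 difference within a mouse was -0.09 between T9232 and M9232, against -1.42 for T11035 and -1.05 for T11640. The log2 fold change over the 3 mice was -0.85 (95% interval -1.44 to -0.27, limma adjusted p = 0.0277), short of 2-fold. It was called lower without gland M9232 (log2 fold change -1.06, limma adjusted p = 0.0105) and without tumor T9232 (-1.03, 0.0292), whereas against gland M9232 alone the value was -0.43 (0.410). Its adjusted p was above the threshold without gland M11035 (0.0669), gland M11640 (0.0883), tumor T11035 (0.084) or tumor T11640 (0.0643) and with no mean-variance trend (0.0557). The genome holds 6 other stretches of at least 200 bases that match the Bnip3 transcript at 95% identity or more, the longest at chr3:144390757-144391662 with 95.59% identity over 907 bases, so some of its fragments may have been placed elsewhere or not counted.

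Vegfa encodes the vascular endothelial growth factor that drives vessel sprouting (chr17:46153942-46169326). It was measured at 172, 156 and 108 CPM in the glands and at 99.6, 97.4 and 84.5 CPM in the tumors. No tumor was higher than any gland, yet gland M9232 lay near the tumors. The log2 fold change was -0.61 (95% interval -1.05 to -0.16, limma adjusted p = 0.0348), so that Vegfa passed on adjusted p and not on fold. Adjusted p was above the threshold without gland M11035 (limma adjusted p = 0.0986), gland M11640 (0.0963), tumor T11035 (0.0627), tumor T11640 (0.0860) or tumor T9232 (0.110) and with no mean-variance trend (0.0699), and it was 0.00602 without gland M9232. The tumors differed from M9232 alone by a log2 fold change of -0.20 (0.476).

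Adm encodes adrenomedullin, a secreted peptide that widens vessels (chr7:117771175-117773331). Levels of Adm were 4.27, 5.95 and 4.92 CPM in the glands and 13.2, 14.2 and 22.9 CPM in the tumors. Every tumor exceeded every gland, with T9232 highest. The mean went from 5.05 ± 0.845 to 16.8 ± 5.36 CPM (SD, n = 3 each), and Adm rose by 1.61 on the log2 scale (SE 0.27, limma adjusted p = 0.00165).

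Among the ligands and receptors of the VEGF and adrenomedullin families, 15 were measured, of which 3 rose (Pgf, Adm and Ramp3) and 5 fell (Vegfb, Figf, Kdr, Ramp1 and Ramp2). That is 20% higher and 33.3% lower, beside 14.5% and 13.7% of all genes. Pgf, a placental growth factor that binds a VEGF receptor, was near the floor in the glands at 0.610, 0.826 and 0.821 CPM and reached 4.84, 7.73 and 8.99 CPM in the tumors. Vegfb, a VEGF relative linked to fatty acid handling, was at 9.96, 11.2 and 7.25 CPM against 1.67, 1.83 and 2.55 CPM (log2 fold change -1.98, limma adjusted p = 0.000635). For these genes and for Ramp1 (-1.32) and Ramp2 (-1.37), partners of the receptor Calcrl, no tumor fell within the range of the glands. Against gland M9232 alone neither Ramp1 (limma adjusted p = 0.051) nor Ramp2 (0.0925) was called. Ramp2 shares exon sequence with an overlapping gene, which leaves its counts uncertain.

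Figf, which encodes VEGF-D, was at 9.56, 29.2 and 17.6 CPM in the glands and 1.86, 3.41 and 8.84 CPM in the tumors. It fell by 1.99 on the log2 scale (limma adjusted p = 0.0176), but was not a DEG without gland M11640 (0.0602), tumor T11035 (0.0619) or tumor T11640 (0.0666), nor against gland M9232 alone (0.119). Kdr, the main VEGF receptor of endothelial cells, stood at 73.2, 130.2 and 89.5 CPM against 41.9, 57.8 and 43.0 CPM. Kdr was called at 2.01-fold lower, next to the threshold (limma adjusted p = 0.00904), and its log2 fold change was -0.78 without gland M11640, -0.92 without tumor T11035 and -0.94 without tumor T9232. That call was also lost with a pseudocount of 1 CPM and with DESeq2 size factors, where the change was just under 2-fold, and against gland M9232 alone (limma adjusted p = 0.0521). Vegfc, which encodes a lymphatic growth factor, lay just short of a 2-fold rise (95% interval of the log2 fold change 0.40 to 1.60, limma adjusted p = 0.0157) and was called higher in 7 of the 16 alternatives, namely a pseudocount of 0.1 CPM (1.05), DESeq2 size factors (1.004), edgeR (1.03), DESeq2 (1.04) and without gland M11640, gland M9232 or tumor T9232 (1.09, 1.11 and 1.15).

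Ramp3, a further receptor partner, was under the floor in all glands (0.407, 0 and 0.137 CPM) and low in tumors at 1.12, 1.44 and 0.749 CPM. Its call had a limma adjusted p of 0.0373 and was lost with mouse as a replicate block (0.0708), in DESeq2 (0.0738), with a pseudocount of 1 CPM (log2 fold change 0.83), against gland M9232 alone (0.0829) and without gland M11640 (0.107), gland M9232 (0.0724), tumor T11035 (0.0668) or tumor T11640 (0.108). Calcrl, the receptor that adrenomedullin uses together with Ramp2 or Ramp3, was singled out after its values were seen. It had a log2 fold change of -0.45 (limma adjusted p = 0.0906). In the comparison with M9232 alone, 2 of the 15 genes were called higher (Pgf and Adm) and 1 lower (Vegfb). How far the endothelial and adipocyte markers above account for these genes was not tested.

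Car12 and Car9 encode carbonic anhydrases anchored in the outer cell membrane, which turn carbon dioxide into bicarbonate and protons. Car12 (chr9:66561493-66614652) was at 4.27, 2.81 and 4.38 CPM in the glands and at 131, 122 and 115 CPM in the tumors. It had the largest fold difference of the 10 genes, with means of 3.82 ± 0.877 and 123 ± 8.12 CPM (SD, n = 3 each). Car12 rose 28.9-fold, by a log2 fold change of 4.86 (95% interval 4.39 to 5.32, limma adjusted p = 1.67e-06), and by 4.66 against gland M9232 alone.

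Car9 (chr4:43519838-43526601) was low everywhere, at 1.63, 0.991 and 2.46 CPM in the glands and 2.98, 4.32 and 3.00 CPM in the tumors. These levels rest on 6 to 18 fragments per gland and 16 to 33 per tumor. The groups did not overlap, but gland M9232 came close to T11035 and T9232. The log2 fold change was 0.88 (95% interval 0.10 to 1.66, limma adjusted p = 0.0691). It passed both thresholds without gland M9232 (1.13, limma adjusted p = 0.0387) and was 0.39 (0.502) against that gland alone.

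Of the 12 carbonic anhydrase genes measured, 1 (Car12) rose and 6 fell, or 8.33% and 50% beside 14.5% and 13.7% of all genes. Car3, a cytosolic form abundant in fat and muscle, was at 2640, 3856 and 1993 CPM in the glands and 24.0, 29.1 and 4.05 CPM in the tumors. Its log2 fold change was -7.52 (limma adjusted p = 4.11e-05) and -6.66 without tumor T9232. In gland M9232, with muscle markers near 0, Car3 was at 1993 CPM. Car5b, a mitochondrial form, fell by 4.16 on the log2 scale, from 160, 280 and 174 CPM to 11.7, 9.04 and 11.2 CPM.

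Car8, a relative without enzyme activity, was at 6.91, 46.1 and 19.97 CPM against 2.61, 1.83 and 1.05 CPM, with a log2 fold change of -3.10 that was -3.79 without gland M11035 and -2.46 without gland M11640. Car2, the fast cytosolic form, fell by 1.80, was highest in gland M9232 at 88.2 CPM and was not a DEG without tumor T9232 (limma adjusted p = 0.0665). The membrane form Car4 fell by 1.82. Car11 was at 2.44, 1.32 and 1.23 CPM in the glands and under the floor in every tumor. For Car13, a cytosolic form, the log2 fold change was 0.83 (limma adjusted p = 0.0139), and it was called higher without gland M11640 (1.02). Against gland M9232 alone Car12 was still called higher and Car2, Car3, Car5b and Car8 lower, whereas Car4 (limma adjusted p = 0.0874) and Car11 (0.0625) were not called. Car6, a secreted form named after its values were seen, was called lower in that comparison only (-5.29, 0.0117). It stood at 38.2 CPM in gland M9232 and at most at 1.70 CPM in every other library, and its log2 fold change was -1.44 (0.449) with all libraries and 0.48 (0.617) without that gland.

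Most markers of epithelium went up in the same libraries as Car12. Of 9 mammary epithelial markers 6 rose, or 66.7% beside 14.5% of all genes. The other 3 were not called, with log2 fold changes of 0.10 to 0.73 and overlapping groups. The 9 summed to 224, 281 and 496 CPM in the glands and 2006, 2407 and 2586 CPM in the tumors. Krt5, the basal keratin and the most abundant of them, was at 9.96, 27.6 and 36.1 CPM against 913, 989 and 1055 CPM. All 7 squamous keratinocyte markers rose as well, beside the same 14.5%, from sums of 7.52, 8.42 and 8.07 CPM to 2181, 3946 and 3084 CPM. Krt10 led them at 3.86, 6.94 and 4.51 CPM against 648, 1278 and 1065 CPM, and Ivl, Lor and Sprr1b were under the floor in every gland. The part of these epithelial markers in the rise of Car12, Hif1a, Egln3, Ankrd37 and Adm was not tested.

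Ndrg1 encodes a cytoplasmic stress protein induced by low oxygen and by differentiation (chr15:66760883-66801202). Its levels were 40.1, 53.8 and 126 CPM in the glands and 87.1, 96.9 and 134 CPM in the tumors. It was the 1 gene of the 10 whose groups overlapped, because gland M9232 exceeded T11035 and T11640. Within each mouse the tumor was the higher tissue, by 1.11, 0.84 and 0.09 on the log2 scale. The log2 fold change was 0.68 (95% interval -0.19 to 1.55, limma adjusted p = 0.187). With mouse as a replicate block the adjusted p was 0.0411 at the same fold change, which is under 2-fold. Without gland M9232 Ndrg1 was called higher (1.16, limma adjusted p = 0.00549), and against that gland alone its sign turned to -0.27 (0.529).

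The 3 relatives of Ndrg1 went different ways. Ndrg4 rose by 2.05 on the log2 scale, from 2.64, 5.95 and 5.33 CPM to 16.7, 22.3 and 20.7 CPM (limma adjusted p = 0.000886). Ndrg2, known from muscle, fat and brain, fell by 2.02, from 430.0, 296 and 203 CPM to 49.3, 92.1 and 84.2 CPM (0.00112). For Ndrg3 the log2 fold change was -0.86 (0.00489), short of 2-fold.

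Levels of different genes can be compared per kilobase of exon. In the glands Bnip3 was highest of the 10 at a mean of 70.9 CPM per kb, followed by Epas1 at 42.6, Vegfa at 33.9 and Hif1a at 26.6 CPM per kb. Ndrg1 (11.1), Egln3 (5.96), Adm (3.64), Ankrd37 (1.99), Car12 (0.841) and Car9 (0.735 CPM per kb) came next. Among the glands the ranges of Epas1 and Vegfa overlapped, as did those of Vegfa and Hif1a, of Ndrg1 and Egln3, and of Car12 and Car9.

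In the tumors the order was different, with Hif1a first at a mean of 99.0 CPM per kb and Egln3 at 69.9 CPM per kb. Bnip3 (39.3), Car12 (27.1), Vegfa (21.9), Ndrg1 (16.1), Epas1 (15.9) and Adm (12.1 CPM per kb) followed, then Ankrd37 at 8.84 and Car9 at 1.49 CPM per kb. The tumor ranges of Bnip3 and Car12 overlapped, as did those of Vegfa and Ndrg1, Vegfa and Epas1, Ndrg1 and Epas1, Ndrg1 and Adm, Epas1 and Adm, and Adm and Ankrd37. Car12 went from a mean beside that of Car9 in the glands to a mean between those of Vegfa and Bnip3 in the tumors.

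A broader view came from 57 measured hypoxia targets outside the 10 genes, grouped by role. Of these, 26 rose and 10 fell, 63.2% in all beside 28.2% of all genes, and their median log2 fold change was 0.81. When M9232 was the lone gland, 24 rose and 7 fell, beside 21.0% of all genes called in either direction. Each group is taken in turn below.

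In the group of enzymes linked to collagen modification 6 of 7 were higher, or 85.7% beside 14.5% of all genes. The median log2 fold change of the 7 was 2.25. That median is the value of Ero1l, an oxidase that forms disulfide bonds in the endoplasmic reticulum and does not act on collagen alone. Loxl2, a collagen crosslinking oxidase, was at 19.1, 39.5 and 19.8 CPM in the glands and 245, 279 and 296 CPM in the tumors (log2 fold change 3.44, limma adjusted p = 2.9e-05). Its relative Lox rose by 3.19 and the lysyl hydroxylase Plod2 by 2.49 (3.16 against gland M9232 alone). The prolyl hydroxylase subunits P4ha1 and P4ha2 rose by 1.64 and 2.11. Plod1, at 0.70 (limma adjusted p = 0.0369), did not reach 2-fold.

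Fibroblast collagens moved with these enzymes. Of 7 fibroblast markers 3 rose, Col1a1, Col1a2 and Col3a1, or 42.9% beside 14.5% of all genes. The 7 summed to 944, 3691 and 1694 CPM in the glands and 8477, 9124 and 8684 CPM in the tumors. The other 4 fibroblast markers were not called, with log2 fold changes of -0.23 to 1.19, so the higher sum in the tumors lies in the collagens. Col3a1 was the most abundant, at 272, 1206 and 377 CPM against 2919, 3442 and 2748 CPM. The part of fibroblasts in the collagen enzyme result was not tested.

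Secreted and vascular targets mostly rose, 8 of 13 being higher and 3 lower, with a median of 1.11. That is 61.5% and 23.1%, beside 14.5% and 13.7% of all genes. Igfbp3, a carrier of insulin-like growth factors, was at 17.1, 14.0 and 18.5 CPM in the glands and 232, 239.8 and 259.8 CPM in the tumors (log2 fold change 3.85), and Pgf rose by 2.58. Every tumor exceeded every gland for both genes.

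Those that fell were Angptl4, Cp and Stc2. Angptl4, a lipase inhibitor made by fat, was at 36.0, 60.9 and 68.0 CPM in the glands and 7.63, 11.5 and 14.2 CPM in the tumors (log2 fold change -2.25, limma adjusted p = 0.000522). Cp, the copper-carrying ferroxidase ceruloplasmin, was at 405, 887 and 1662 CPM against 290, 262 and 167 CPM, and its fall of 1.85 was not a DEG without tumor T9232 (limma adjusted p = 0.0529) and was 2.83 against gland M9232 alone. Its exons overlap those of another gene. Stc2, a secreted glycoprotein, fell by 1.84 and was not called against gland M9232 alone (0.180). Against that gland alone fewer of the 13 secreted and vascular targets were called in each direction, as was true of all genes.

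Genes of glucose and energy metabolism went both ways with all libraries, 6 of 22 being higher and 6 lower, with a median of -0.02. That is 27.3% in each direction, beside 14.5% and 13.7% of all genes. Against gland M9232 alone more of the group were called higher and fewer lower, whereas fewer of all genes were called in each direction. The median of the group was -0.26 for T11035 over M11035, -0.24 for T11640 over M11640 and 0.68 for T9232 over M9232. The glucose transporter Slc2a3 was at 24.2, 15.4 and 19.8 CPM in the glands and 73.7, 243 and 357 CPM in the tumors. Tumor T11035 was the lowest of the 3, and the log2 fold change of 3.22 was 3.88 without it. The lactate exporter Slc16a3, whose exons overlap those of another gene, rose by 3.17 and the mitochondrial adenylate kinase Ak4 by 3.58, or by 4.53 against gland M9232 alone.

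The 3 lowest log2 fold changes of this group were those of Ppp1r3c, Gbe1 and Pfkfb3. Ppp1r3c, which targets a phosphatase to glycogen, was at 84.2, 74.0 and 19.2 CPM in the glands and 3.91, 3.54 and 1.95 CPM in the tumors. Gland M9232 was the lowest gland, and the log2 fold change was -3.82 with it and -4.50 without it. The glycogen branching enzyme Gbe1 fell by 2.53, and Pfkfb3, which makes an activator of glycolysis, by 1.64. These 3 genes were still called lower against gland M9232 alone, at -2.48, -1.98 and -1.20.

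Among 15 targets with roles in transcription and cell fate 6 rose and 1 fell, with a median of 0.77. That is 40.0% and 6.67%, beside 14.5% and 13.7% of all genes. Ddit4, an inhibitor of mTOR signaling, was at 14.8, 5.12 and 15.9 CPM in the glands and 35.7, 37.5 and 75.7 CPM in the tumors (log2 fold change 2.07, limma adjusted p = 0.00604). It was not called against gland M9232 alone (1.53, 0.0702). Fam162a, a mitochondrial protein of hypoxic cell death, rose by 2.07 and the cytokine Mif by 1.61. Zfp395 fell by 1.28, and Rora, a nuclear receptor, had a log2 fold change of -0.63.

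**Figure D3:**
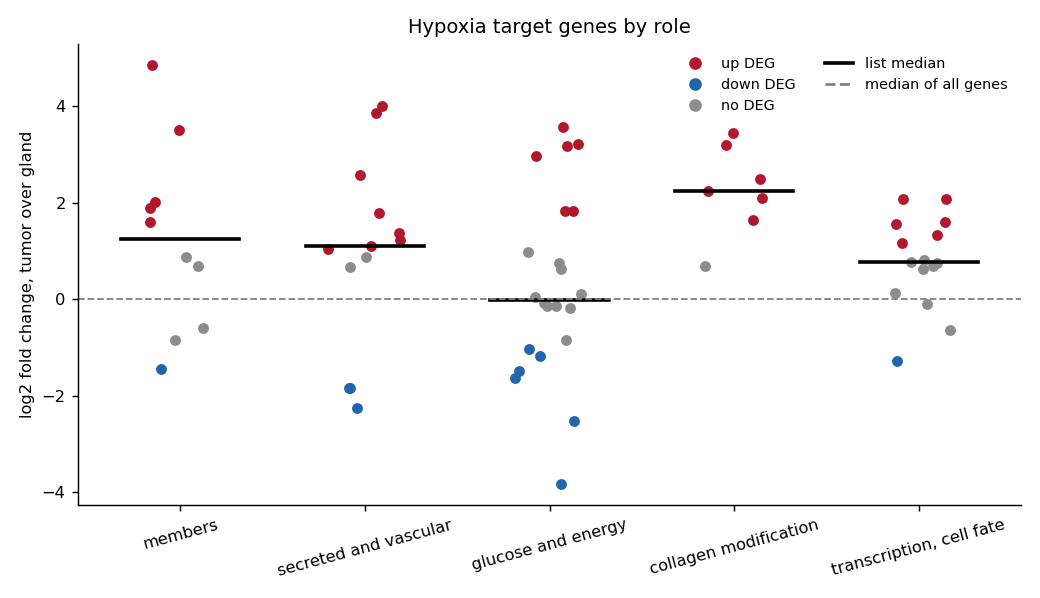
Tumor over gland log2 fold change of the 10 hypoxia genes and of 57 other hypoxia targets in 4 groups by role; each point is a gene, red for called higher, blue for called lower and gray for not called. Black bars are group medians, at 1.24, 1.11, -0.02, 2.25 and 0.77 from left to right, and the dashed line is the median of all genes.

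Markers of 2 immune cell types were also measured. All 6 B cell markers fell, beside 13.7% of all genes, from sums of 368, 146 and 284 CPM to 5.02, 3.54 and 3.30 CPM. Ms4a1 led them at 175, 78.3 and 155 CPM against 1.86, 0.917 and 1.50 CPM, with Cd79a and Pax5 at or under the floor in every tumor. Of 8 macrophage markers 1 fell, Cd163, or 12.5% beside 13.7% of all genes. Cd163 was not a DEG without gland M11640 (limma adjusted p = 0.0801), gland M9232 (0.0597), tumor T11035 (0.110) or tumor T11640 (0.0874) or with no mean-variance trend (0.0552). The macrophage markers summed to 1058, 2045 and 3852 CPM in the glands and 1131, 2363 and 2270 CPM in the tumors, with Lyz2 the most abundant at 816, 1272 and 2982 CPM against 723, 1752 and 1609 CPM. Macrophages are known to make Vegfa under low oxygen, and their part in its level was not tested.

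The genes whose levels tracked the HIF subunits most closely over the 6 libraries were sought among 14712 genes, as a description. Uox, which encodes urate oxidase, had the highest Pearson correlation with Hif1a (0.999). It was under the floor in all glands and at 50.1, 53.5 and 57.8 CPM in the tumors. A correlation with Hif1a of at least 0.95 was reached by 1387 genes, so that the order among them rests on small differences.

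Cebpa, an adipocyte and myeloid transcription factor, was the gene most like Epas1 (0.999), followed by the predicted gene Gm15413 and by Sod1, the cytosolic superoxide dismutase. Cebpa was at 72.2, 88.7 and 57.3 CPM in the glands and 13.0, 15.5 and 27.0 CPM in the tumors, with M9232 again the lowest gland and T9232 the highest tumor. Sod1 had the same order of libraries, at 455, 522 and 353 CPM against 84.5, 99.5 and 135 CPM. Gm15413 was low, at 2.64, 2.81 and 2.19 CPM against 0.744, 0.786 and 1.20 CPM, and not a DEG without gland M11640 (limma adjusted p = 0.0606) or tumor T11640 (0.0595), in DESeq2 (0.0588), against gland M9232 alone (0.148) or with a pseudocount of 1 CPM (log2 fold change -0.90). For Epas1, 632 genes reached a correlation of 0.95.

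HIF binds a core of 5 letters, ACGTG or GCGTG, and the promoters of the 10 genes were searched for it on both strands. RefSeq promoter sequences of 300 bases (250 before and 50 after the start, GRCm38.p6, each matched exactly to mm9 for its position) were used for 8 of the genes, Epas1 and Ndrg1 being the others. They give 9 promoters, since Vegfa has 2. The letters were present in 7 of the 9, beside 43.8% of the 32851 mouse promoters of the same length. The sequence CACGTG, also the E-box of other factors, holds the core on both strands and counts as 2 matches. Bnip3 had 5 matches, Ankrd37 4, Hif1a 3, and Adm 2, where 20.6% of all promoters have at least 2 and 8.93% at least 3. Egln3 and Car9 had 1 match each, and the second Vegfa promoter, which lies inside the gene, had 2.

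No match was present in the Car12 window or the first Vegfa window, whereas the second Vegfa window had 2. Car12 rose most of the 10 genes, and Vegfa was not called. Bnip3, with the most matches, was not called. A match describes letters and not a bound site, and sequence outside these windows of 300 bases was not searched.

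The windows around the core in 5 of the promoters show how differently the letters are placed, singly in Egln3 and in a cluster in Bnip3. They are written 5′ to 3′ on the strand of the gene, with the core in capitals. Windows that overlap an annotated exon are not printed, which leaves out the match nearest to the start in Ankrd37 and in Bnip3 and those of Car9 and of the second Vegfa promoter. Those of Egln3 (chr12:55305066-55305110, minus strand), Adm (chr7:117771061-117771141, plus strand) and Bnip3 (chr7:146101264-146101326, minus strand) lie upstream of the gene. The 2 shown for Ankrd37 (chr8:47085421-47085454 and chr8:47085332-47085379, minus strand) lies upstream of Ankrd37 and within Lrp2bp, outside its exons. Those of Hif1a (chr12:75008699-75008744 and chr12:75008764-75008808, plus strand) lie within the annotated Hif1a gene, outside its exons.
Egln3: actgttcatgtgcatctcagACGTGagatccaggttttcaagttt
Ankrd37, first: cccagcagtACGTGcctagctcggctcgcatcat
Ankrd37, second: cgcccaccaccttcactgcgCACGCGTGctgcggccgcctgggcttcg
Adm: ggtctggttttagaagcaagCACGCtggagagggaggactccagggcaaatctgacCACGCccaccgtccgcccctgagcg
Hif1a, distal: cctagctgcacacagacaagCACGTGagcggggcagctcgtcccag
Hif1a, proximal: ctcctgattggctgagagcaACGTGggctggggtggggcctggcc
Bnip3: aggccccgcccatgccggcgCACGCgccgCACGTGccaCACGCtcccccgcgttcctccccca

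**Figure D4:**
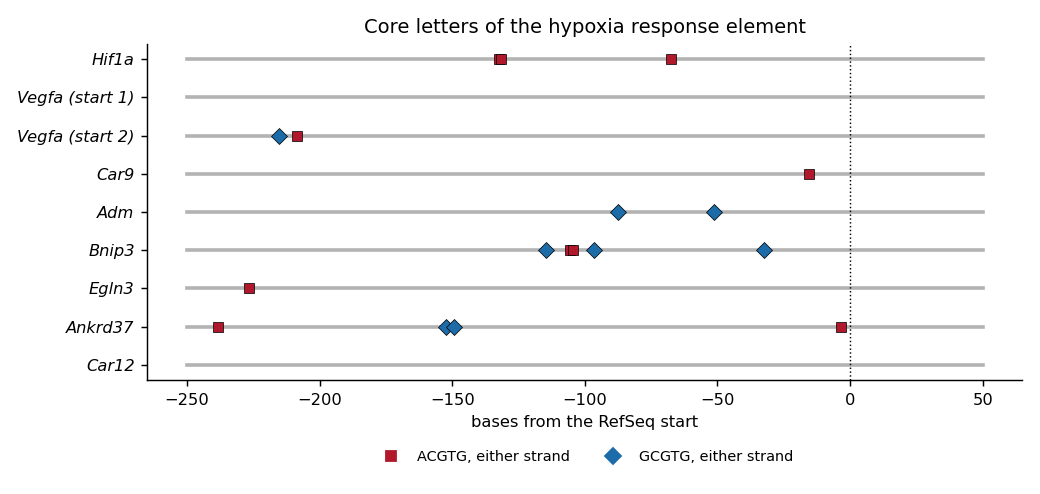
Positions of ACGTG (red squares) and GCGTG (blue diamonds), on either strand, in 9 RefSeq promoters of 8 hypoxia genes; the horizontal axis is bases from the annotated start (dotted line). Bnip3 holds 5 matches and Ankrd37 4, while Car12 and the first Vegfa promoter hold none.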

How the data were processed

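Total RNA from 3 tumors and 3 adjacent normal glands was made into libraries with the Ovation RNA-Seq System V2 and sequenced in pairs. The authors mapped reads to mm9 with TopHat 2.0.3, assigned fragments to RefSeq genes using htseq-count 0.5.3p9, removed genes with fewer than 10 fragments over all samples and deposited CPM on the effective library size of edgeR 3.6.1. The deposited signal is CPM, but columns sum to between 952151 and 1041166, so they do not add up exactly. In each library 100% of values were whole multiples of 1 fragment (within 0.01 fragments), so whole fragments were recovered.

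Groups were compared by limma 3.58.1 in R 4.3.3, two-sided, after adding 0.5 CPM and taking log2, with the mean-variance trend fitted, with Benjamini-Hochberg adjustment over 15280 genes and no filter. It was tested on simulated data. Alternatives were pseudocounts of 0.1 and 1 CPM, a filter of 1 CPM in 3 libraries, no trend, other scalings, mouse as a replicate block, edgeR 4.0.16 (4462 DEGs) and DESeq2 1.42.0 (4436 DEGs) on the recovered fragments, each library left out in turn, and, added after seeing the data, the tumors against gland M9232 alone. Limma called 4309 DEGs. Tumors and glands share mice. Within pairs, deviations from the group means correlated at 0.107, 0.151 and 0.0168 over 14712 genes. Replicates are separate mice.

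The 10 genes and all gene lists were chosen with earlier results of these data known. Named genes were the 10, genes of the oxygen-sensing list, the 3 highest and 3 lowest log2 fold changes of each other list at a mean of at least 1 CPM, DEGs of the VEGF, carbonic anhydrase and Ndrg families, the most abundant marker of each cell type and those at or under the floor, and the 3 genes most like Hif1a and Epas1. Calcrl, Car6, Ero1l, the exon neighbors of Ankrd37 and the called endothelial, macrophage, fibroblast and muscle markers were named after their values were seen. Of the genes these rules pick, 3 are not reported here. Gene positions and exon lengths are from GENCODE vM1 (mm9). Near-identical copies were searched with BLAST 2.17.0.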

Additional observations from a re-analysis of the deposited data

How the results depend on the processing

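The calls of Hif1a, Epas1, Egln3, Ankrd37, Adm and Car12 kept their direction and side of the thresholds in all 16 alternatives. The count of called hypoxia genes that fell was 1 with all libraries and ranged from 1 to 2 when a library was left out. Mouse as a replicate block changed no call among the 10 genes and gave 4298 DEGs over all genes. Against gland M9232 alone, chosen after seeing the data, 3206 DEGs were called, and the sign turned for Ndrg1 (-0.27), Egln1 (0.17), Hif1an (0.16), Vhl (-0.039) and Lrp2bp (0.38), none of them called. The difference of Vhl was near 0 and also changed sign with libraries rescaled to equal sums (-0.0045), edgeR (-0.012) and DESeq2 (-0.0035). With a library left out, Vhl ranged from -0.16 to 0.16, Hif1an from -0.16 to 0.19 and Lrp2bp from -0.56 to 0.21. Car6 turned to 0.48 without gland M9232 and ranged down to -2.65 without gland M11035. The cause was not tested. Car9 rests on 6 to 33 fragments per library, and whether depth limits its call was not tested. The use of 3 mice limits every interval. Protein levels, oxygen and HIF binding were not measured.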
